A study of Caenorhabditis elegans with 3 samples.

Results

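The mitochondrial unfolded protein response genes of the nematode Caenorhabditis elegans were described here through 10 genes: the chaperone genes hsp-6 and hsp-60, the protease genes lonp-1, clpp-1, spg-7 and ymel-1, and the signalling genes atfs-1, dve-1, ubl-5 and haf-1. They were taken by name, as every probe set whose annotated gene symbol was one of the 10. This gave 15 of the 22625 probe sets on the array, and 10 of the 17118 genes that had a probe set of their own. A probe set is a group of short oligonucleotides on the array that together report 1 transcript or a few like transcripts. The genes hsp-6, hsp-60, lonp-1, clpp-1 and dve-1 had 2 probe sets each, and the other 5 had 1.

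RNA came from whole larvae of the wild-type strain N2 (Bristol), given by the labels as L1, and each of the 3 groups had 1 Affymetrix array. One group was held at 30 °C for 24 h (heat shock, the study's positive control for stress), one was jetted from a steel needle held at high voltage (bio-electrospray), and one was left untreated (control). All came from parents kept at 20 °C on Escherichia coli OP50, and the study asked how far the transcripts of sprayed larvae departed from those of untreated ones. The labels name no mutation or transgene in any group and do not say how many cultures each RNA represents. Each group being a single array, the differences given here cannot be set against a spread between replicates, and no p-values were computed.

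The mitochondrial unfolded protein response is the route by which a cell with misfolded or unimported mitochondrial proteins calls up mitochondrial chaperones and proteases from the nucleus. In the worm the transcription factor ATFS-1 is normally imported into mitochondria and degraded there by the Lon protease. When import is poor it collects in the nucleus instead, where it acts beside the homeodomain protein DVE-1 and the ubiquitin-like protein UBL-5, and HAF-1, a transporter of the inner membrane, exports peptides made by the protease CLPP-1. A raised hsp-6 or hsp-60 transcript is the usual readout of this response in worms.

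Of the chaperone genes that report this response, hsp-6 differed from control by −0.54 after heat shock and −0.15 after bio-electrospray on the log2 scale. Hsp-60 differed from control by −0.15 after heat shock and 0.10 after bio-electrospray. When the arrays were aligned on spike-in probe sets, these differences were −0.003 and 0.037 for hsp-6, and 0.38 and 0.29 for hsp-60. That alignment put the median of all genes tested at 0.53 after heat shock and 0.19 after bio-electrospray. On the deposited scaling, 7 of the 9 members that passed the level filter were lower after heat shock than in control. Of all genes tested, 41.9% were lower. The median log2 difference of the 9 members was −0.40, with lonp-1, clpp-1 and hsp-6 the lowest beside spg-7. Spg-7 passed the filter through its control level alone, so it could only be counted as lower. After bio-electrospray the median was −0.03, and spg-7 was the only member lower by more than 1.5-fold. Of all genes tested, 1.39% were 1.5-fold apart in either direction. No member was 2-fold apart in any comparison on the deposited scaling. Of all genes tested, 17.1% were between heat shock and control, and 0.302% between bio-electrospray and control. Between heat shock and bio-electrospray 16.5% were. With median centring spg-7 was 2-fold apart, at −1.03 for heat shock against control.

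Levels are given on the log2 scale of the deposited values, on which a difference of 1 is 2-fold. The median over all probe sets was 3.19 after heat shock, 3.16 after bio-electrospray and 3.15 in control. A gene was counted in a comparison when its brightest probe set exceeded that median on either of the compared arrays. All 3 arrays had 13 of the 15 member probe sets above the median. The exceptions were the probe set of haf-1, below it on every array, and that of spg-7, above it on the control array alone. Spg-7 therefore entered the comparisons with control through its control level, which could only let it in as a lower gene.

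The labelled tissue was checked with small marker lists. All 4 intestinal, all 4 body wall muscle, all 4 hypodermal and all 4 neuronal markers lay above the median on every array, as did all 3 germline markers (pgl-1, glh-1 and gld-1), while the yolk genes vit-2 and vit-6 of adults lay below it on every array. The sperm gene msp-36, whose product is made in developing sperm, which L1 larvae do not have, stood at 3.08 after heat shock, 5.38 after bio-electrospray and 6.24 in control. The name of its probe set ends in x, which marks it as possibly shared with other transcripts. The other sperm marker on the array, spe-9, lay below the median on every array, at 2.23 after heat shock, 2.28 after bio-electrospray and 2.26 in control. The level of msp-36 in control thus goes against the L1 label, whereas that of spe-9 does not. Germline markers had a median level of 4.43 after heat shock, 6.75 after bio-electrospray and 6.73 in control, and the log2 of their summed linear levels was 8.65 after heat shock, 9.41 after bio-electrospray and 9.47 in control. The median difference of heat shock from control was −1.39 for these 3 germline genes and 0.73 for the 4 neuronal genes. All 4 intestinal markers were lower after heat shock than in control (median −0.31, ges-1 at −1.38), and all 4 were higher after bio-electrospray (median 0.09). The log2 of their summed linear levels was 9.96 after heat shock, 10.56 after bio-electrospray and 10.37 in control. The part of the germline, neuronal and intestinal differences in the results below was not tested. In RNA from whole animals, fewer cells of a type and less RNA per cell cannot be told apart. With 1 array per group, a difference in larval stage between the arrays cannot be told apart from the treatment either.

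A further pair of technical measures moved with heat. The 18 hybridization spike-in probe sets, which read transcripts added during the assay, had a median difference of −0.53 between heat shock and control and of −0.19 between bio-electrospray and control. Of 4 control genes read at both ends, the 5′ probe set of Gapdh differed from the 3′ one by −0.16 after heat shock, −0.62 after bio-electrospray and −0.85 in control. The gap for catalase was −2.48 after heat shock, −3.27 after bio-electrospray and −3.25 in control. The gap for Actin was −0.66 after heat shock, −0.77 after bio-electrospray and −0.80 in control, and that for Ubiquitin −4.51 after heat shock, −4.63 after bio-electrospray and −4.62 in control. The gap was smallest after heat shock for all 4 genes, by much less for Actin and Ubiquitin than for Gapdh and catalase, and the part of this in the differences below was not tested.

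**Figure D1:**
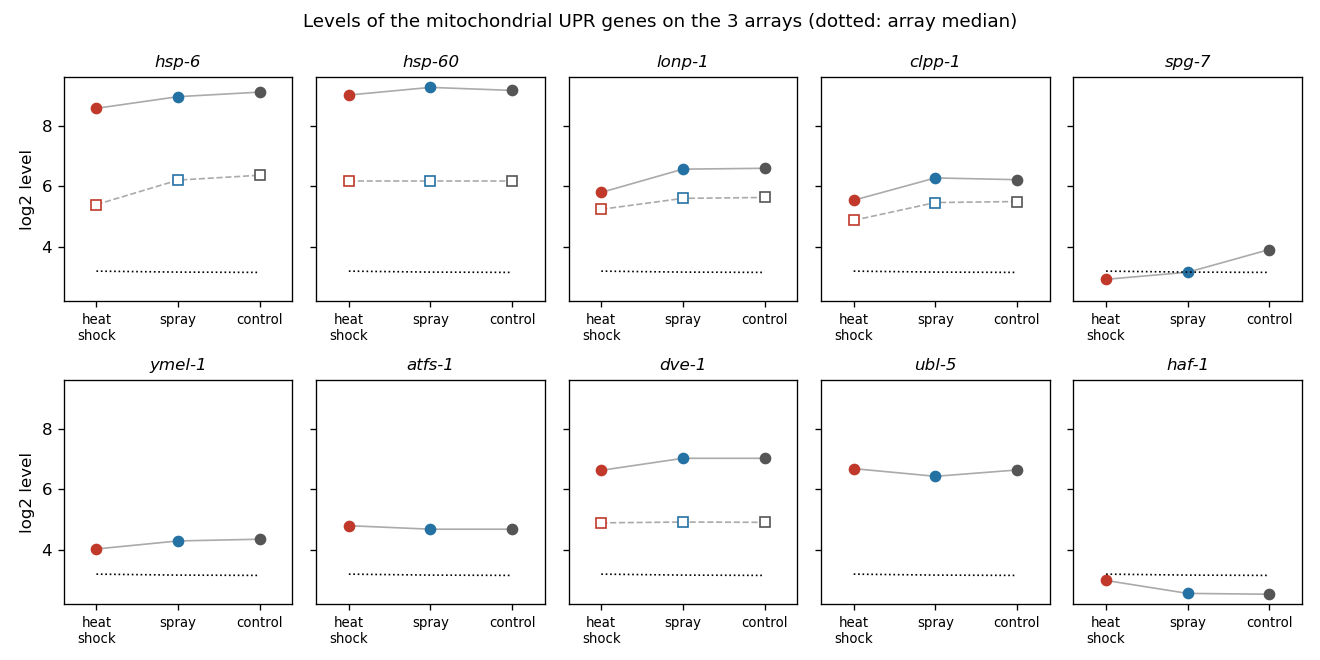
Log2 level of each of the 10 genes on the heat shock, bio-electrospray (spray) and control arrays, with 1 array per group. Filled circles are the brightest probe set of the gene, open squares its second probe set, and the dotted line is the array median; hsp-6, lonp-1 and clpp-1 are lower on the heat shock array with both of their probe sets, whereas the second hsp-60 probe set is at 6.17 on all 3.

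Hsp-6 encodes the mitochondrial member of the HSP70 family, which pulls incoming proteins through the inner membrane and folds them. Its brightest probe set read 8.58 after heat shock, 8.97 after bio-electrospray and 9.12 in control, and its second probe set read 5.40 after heat shock, 6.21 after bio-electrospray and 6.37 in control. Both probe sets were lowest on the heat shock array. The difference of heat shock from control was −0.54 with the first and −0.97 with the second, so control was 1.45-fold or 1.96-fold above heat shock depending on the probe set. The difference of bio-electrospray from control was −0.15 and −0.16. By rank, 16.1% of the 9010 genes tested lay at or below the heat shock difference of hsp-6.

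Hsp-60 encodes the chaperonin of the matrix, a folding chamber for newly imported proteins. Its brightest probe set read 9.02 after heat shock, 9.28 after bio-electrospray and 9.18 in control. These 3 levels lay close together, with differences from control of −0.15 after heat shock and 0.10 after bio-electrospray. The second probe set had exactly the same value, 6.17, on all 3 arrays, a property it shares with 2215 of the 22625 probe sets (9.79%), so it carries no information on a difference. The gene next to hsp-60 in the RefSeq gene order, Y22D7AL.10, stood at 9.51 after heat shock, 9.57 after bio-electrospray and 9.42 in control.

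The proteases of the matrix were lower after heat shock. Lonp-1 encodes the Lon protease, which removes damaged and misfolded matrix proteins and also degrades imported ATFS-1. Its brightest probe set read 5.80 after heat shock, 6.57 after bio-electrospray and 6.60 in control, and the second read 5.24 after heat shock, 5.60 after bio-electrospray and 5.63 in control. Control was thus 1.74-fold or 1.31-fold above heat shock, while bio-electrospray and control differed by −0.03 with either probe set.

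Clpp-1 encodes the proteolytic subunit of the matrix protease whose peptides feed the response. It read 5.54 after heat shock, 6.28 after bio-electrospray and 6.22 in control with its brightest probe set, and 4.87 after heat shock, 5.46 after bio-electrospray and 5.49 in control with the second. Its heat shock differences of −0.68 and −0.62 were the closest pair among the genes with 2 informative probe sets. The difference of bio-electrospray from control was 0.06 with the first probe set and −0.03 with the second, so it had no settled direction.

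The remaining proteases are AAA-type enzymes of the inner membrane. Spg-7, whose product belongs to the type that faces the matrix, read 2.92 after heat shock, 3.15 after bio-electrospray and 3.90 in control. Both treated arrays lay below the control array and below their own array medians, close to the floor of these values. Having passed the filter through its control level alone, spg-7 could only be counted as lower, so it is not ranked among all genes. The difference was −0.99 for heat shock and −0.75 for bio-electrospray. With 16 added to the linear levels, which damps differences between dim probe sets, these became −0.39 and −0.32. Spg-7 had a single probe set, so no second reading was at hand.

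Ymel-1, whose product faces the intermembrane space, read 4.02 after heat shock, 4.29 after bio-electrospray and 4.35 in control. Heat shock lay lowest again, by −0.32 from control, and bio-electrospray differed from control by −0.06.

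Among the signalling genes, atfs-1, the bZIP transcription factor that senses mitochondrial import, read 4.79 after heat shock, 4.68 after bio-electrospray and the same 4.68 in control. Dve-1, which binds the chromatin of response genes, read 6.63 after heat shock and 7.03 both after bio-electrospray and in control with its brightest probe set. Its second probe set read 4.89 after heat shock, 4.91 after bio-electrospray and 4.90 in control, a difference of −0.02 between heat shock and control against −0.40 with the first, so the probe sets of dve-1 do not give the same size. Ubl-5, the ubiquitin-like partner of DVE-1, read 6.68 after heat shock, 6.43 after bio-electrospray and 6.64 in control, and was the only signalling gene lowest on the bio-electrospray array (−0.21 from control).

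Haf-1, the peptide exporter, read 2.98 after heat shock, 2.55 after bio-electrospray and 2.52 in control. Its difference of 0.46 after heat shock is between values below the median on every array, and it was not counted in any comparison.

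**Figure D2:**
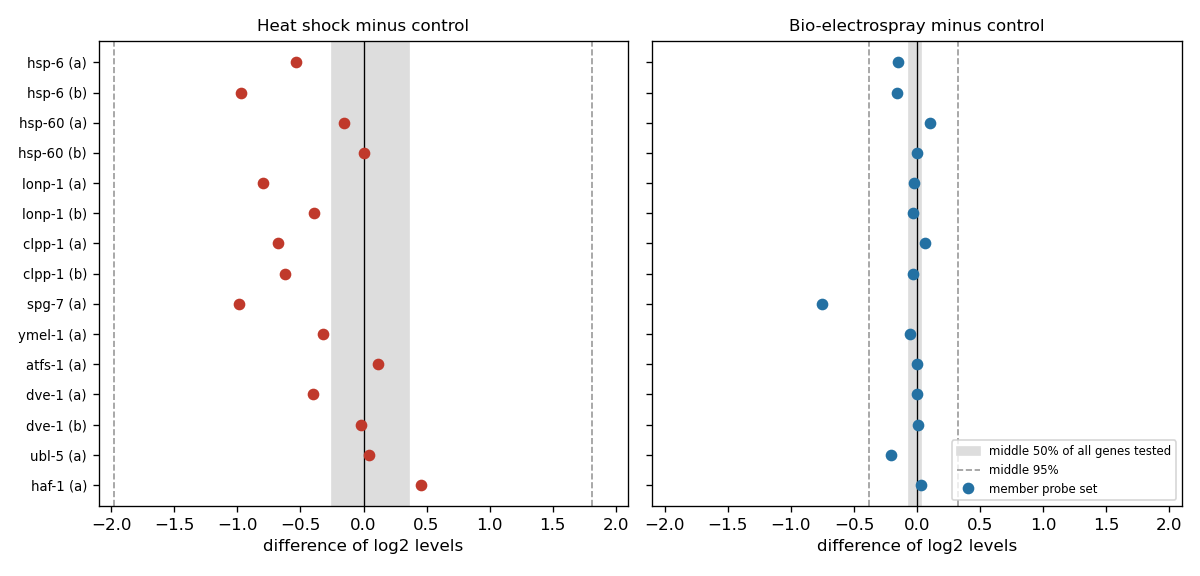
Difference of log2 levels from control for each of the 15 member probe sets, after heat shock on the left and bio-electrospray on the right, with (a) the brightest and (b) the second probe set of a gene. The grey band holds the middle 50% and the dashed lines the middle 95% of all genes tested; in the left panel all members lie inside the dashed lines, and in the right panel spg-7 (−0.75) lies outside them, while haf-1 was below the level filter.

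Taken over the members, 0 of 9 differed 2-fold or more between heat shock and control, where 17.1% of the 9010 genes tested did; with median centring the count was 1 (spg-7). At 1.5-fold on the deposited scaling, spg-7, lonp-1 and clpp-1 were lower and none higher (3 of 9). Of all genes tested, 15% were lower and 32.7% were apart in either direction. Spg-7 passed the filter through its control level alone, so it could enter these counts and the median only as a lower gene. The background median was 0, against −0.40 for the 9 members, and 7 of 9 members had a negative difference where 41.9% of all genes tested did. The middle 95% of all differences ran from −1.97 to 1.81 and held every member. Each member's difference can also be set beside the gap between 2 probe sets of a gene, which had an SD of 0.44 over 2024 genes in this comparison. This gap is taken on the same arrays, so here and below its SD does not measure a spread between replicates. The brightest probe sets of hsp-6, lonp-1, clpp-1 and spg-7 differed by more than this SD, and those of hsp-60, ymel-1, dve-1, atfs-1 and ubl-5 by less. The second probe sets of hsp-6 (−0.97) and clpp-1 (−0.62) also differed by more, that of lonp-1 (−0.39) by less, and spg-7 had none.

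Between bio-electrospray and control, 0 of 9 members were 2-fold apart, where 0.302% of 8613 genes tested were. At 1.5-fold, spg-7 alone was apart (1 of 9), and 1.39% of all genes tested were. It had passed the filter through its control level alone. The members had 5 negative, 2 positive and 2 exactly equal differences. Among all genes tested 37.1% were negative and 28.7% exactly equal. The SD of the gap between probe sets of a gene was 0.16 over 1947 genes, and spg-7 and ubl-5 exceeded it. Both had a single probe set, and that of ubl-5 is possibly shared with other transcripts.

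Set directly against bio-electrospray, heat shock was lower in 6 of the 8 members that passed the filter (41.8% of 9024 genes tested were), with a median of −0.33 against 0 for all genes tested. None of the 8 was 2-fold apart, where 16.5% of all genes tested were. Lonp-1 (−0.77) and clpp-1 (−0.74) were 1.5-fold apart, where 32.3% of all genes tested were, and ubl-5 (0.25) and atfs-1 (0.12) were higher. The comparisons share arrays, so they are not separate evidence.

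The level at which the arrays are aligned sets the sign of some of these values. When each array was shifted so that the spike-in probe sets were level, the median of all genes tested moved by 0.53 between heat shock and control, and the member median stood at 0.14, which is −0.40 relative to that shift. Under that scaling atfs-1 (0.65), ubl-5 (0.58), hsp-60 (0.38), ymel-1 (0.21) and dve-1 (0.14) were higher after heat shock than in control, and hsp-6 was level (−0.003). Atfs-1 was then more than 1.5-fold higher, and no member was 1.5-fold lower. The shares of all genes past 1.5-fold under that scaling are not given here. The shift keeps the order of the genes. Of the 9010 genes tested, 36.4% lay at or above atfs-1, whose difference was 0.12 on the deposited scaling, and 83.9% at or above hsp-6. Lonp-1 (−0.27) and clpp-1 (−0.15) remained below control, as did spg-7 (−0.45). Relative to the median of all genes tested, the member median lay between −0.40 and −0.35 under the 6 scalings tried. Median and spike-in centring move all genes of an array by the same amount, so they could not change this relative value.

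**Figure D3:**
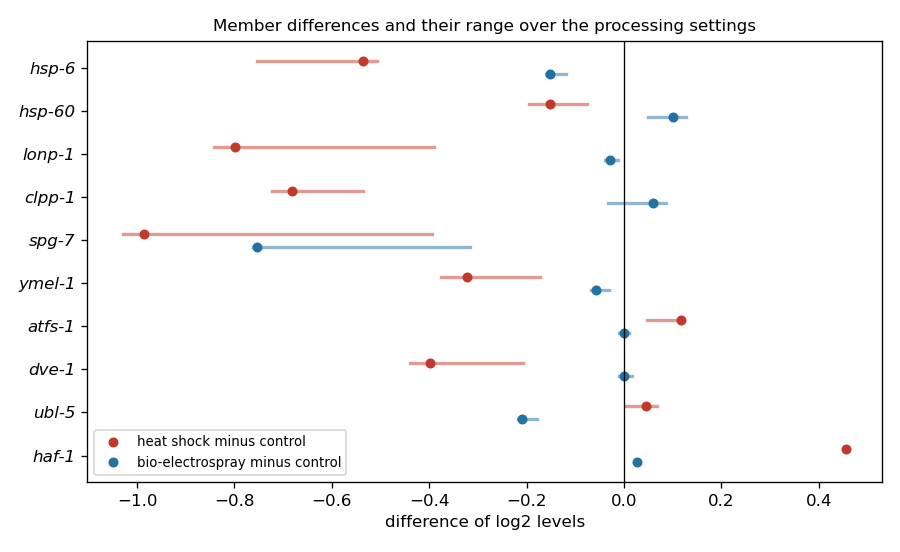
Difference of log2 levels from control for each gene (points) and its lowest and highest value over the deposited scaling and the alternatives other than spike-in centring (bars); red is heat shock minus control and blue bio-electrospray minus control. The red bars of hsp-6, lonp-1, clpp-1 and spg-7 stay below −0.39, and the blue bar of clpp-1 crosses 0.

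Wider lists of mitochondrial genes are given on the deposited scaling. Relative to the median of all genes tested, the heat shock medians of the next 4 lists were negative and that of the signalling list positive under all 6 scalings. Median and spike-in centring could not change these relative values by construction. Without that reference, the spike-in shift of 0.53 turns the sign of each negative median. Of 11 further mitochondrial chaperone, prohibitin and protease genes above the filter, 9 had negative differences (41.9% of all genes tested did) and 1 a positive one. Their median was −0.41 (0 for all genes tested), and none was 2-fold apart (17.1% of all genes tested were). Phb-1, which encodes 1 of the paired prohibitins that form rings in the inner membrane, read 7.49 after heat shock, 8.39 after bio-electrospray and 8.48 in control, a heat shock difference of −0.99. Its partner phb-2 differed by −0.41. Ppgn-1, a paraplegin-type relative of spg-7, read 5.29 after heat shock, 6.04 after bio-electrospray and 6.15 in control (−0.85 for heat shock). The gene C34C12.8 differed by −0.69 and the mitochondrial HSP90-type gene hsp-75 by −0.63, and Y22D7AL.10 (0.09) was the only positive one.

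Protein import showed both directions. Among 22 genes of import and presequence processing, 15 were negative (41.9% of all genes tested were) and 5 positive after heat shock, with a median of −0.31. Of these, 2 were at least 2-fold lower and 1 at least 2-fold higher, where 8.24% of all genes tested were lower and 8.9% higher by that much. The lowest was mppa-1, a subunit of the peptidase that clips off targeting sequences, at 5.28 after heat shock, 6.05 after bio-electrospray and 6.35 in control (−1.06). It was followed by tin-10 (−1.02), a small carrier of the intermembrane space, and by tomm-40 (−0.91), the pore of the outer membrane. The channel gene of the inner membrane, timm-23, went the other way, at 8.37 after heat shock, 7.23 after bio-electrospray and 7.28 in control (1.09). Mtx-2 (0.60) and gop-3 (0.43), which act in the outer membrane, were also higher.

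Of 53 respiratory chain and ATP synthase genes above the filter, 35 were negative (41.9% of all genes tested were), 8 positive and 10 exactly equal between heat shock and control, with a median of −0.21. A share of the list below the 8.24% of all genes tested was at least 2-fold lower, namely 3 genes: asb-1 (−1.91), an ATP synthase subunit gene known for germline expression, ucr-2.3 (−1.51) of complex III and nduf-2.2 (−1.27) of complex I. The somatic counterpart of asb-1, asb-2, differed by −0.27. The highest were clk-1 (0.57), needed for ubiquinone synthesis, the cytochrome c gene cyc-2.1 (0.29) and coq-3 (0.24). Germline markers were lower on the same array, by −2.34 for gld-1, −1.39 for pgl-1 and −0.61 for glh-1, and their part in this result was not tested.

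Genes of mitochondrial DNA upkeep, transcription and translation had 12 of 15 negative differences (41.9% of all genes tested were negative) and a median of −0.33. Of the 15, 1 was at least 2-fold lower, where 8.24% of all genes tested were. This was the single-stranded DNA-binding protein gene mtss-1, at 7.10 after heat shock, 8.38 after bio-electrospray and 8.32 in control (−1.22). The mitochondrial tRNA synthetase genes iars-2 (−0.57) and lars-2 (−0.52) were lower by less, and the DNA-packaging gene hmg-5 was higher (0.51), while after bio-electrospray hmg-5 was lower (−0.49).

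Among the other regulators of the response the differences were mostly small. In the signalling and chromatin list 11 of 15 genes were positive (43.5% of all genes tested were), 1 negative and 3 exactly equal, with a median of 0.11 and 2 at least 2-fold higher (8.9% of all genes tested were). Several of the positive differences were small, such as 0.01 for sphk-1, 0.09 for rheb-1 and 0.10 for jmjd-1.2, and egl-20 passed the filter through its heat shock level alone. The MAP kinase kinase kinase gene dlk-1 stood at 7.83 after heat shock, 5.99 after bio-electrospray and 6.08 in control (1.74), and the histone demethylase gene jmjd-3.1 at 4.74 after heat shock and 3.68 both after bio-electrospray and in control (1.06). The beta-catenin gene bar-1, of the Wnt route, was higher by 0.83. The single lower gene was the eIF2 alpha kinase gene gcn-2 (−0.66). Dlk-1 acts in neurons, and the neuronal markers were higher on the same array by 0.28 to 0.95; their part was not tested.

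Mitochondrial shape and mitophagy genes had a median of 0 over 13 genes. Dct-1, which encodes a mitophagy receptor of the BNIP3 type, stood at 6.10 after heat shock, 2.89 after bio-electrospray and 2.88 in control. Its levels on both other arrays lay below the array median, so dct-1 entered through its heat shock level and the size of its difference (3.22) depends on the background model. Immt-2, of the complex that shapes cristae, was lower (−1.25). In the antioxidant and metabolic list, with a median of 0.05 over 13 genes, the inducible mitochondrial superoxide dismutase gene sod-3 was at 4.56 after heat shock, 2.90 after bio-electrospray and 2.71 in control. Its levels on both other arrays lay below the array median, so its difference of 1.85 from control depends on the background model. Sod-2, the more constant mitochondrial superoxide dismutase gene, differed by −0.29. The glutathione S-transferase gene gst-4 (−1.60) and the aconitase gene aco-2 (−0.93) were lower. The glyoxylate cycle gene icl-1 was higher after both treatments, by 0.62 after heat shock and 0.51 after bio-electrospray.

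**Figure D4:**
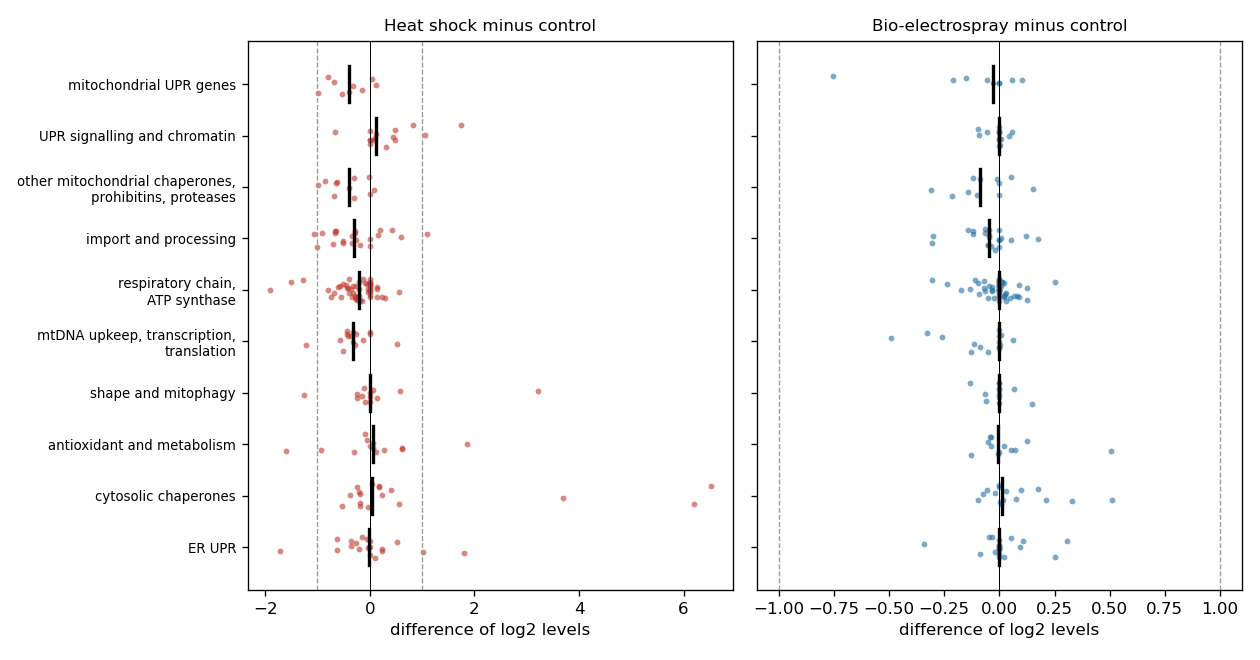
Difference of log2 levels from control for every gene above the level filter in the mitochondrial unfolded protein response genes and 9 wider lists, after heat shock on the left and bio-electrospray on the right. Each point is a gene, the black bar is the list's median and the dashed lines mark 2-fold; the panels have different horizontal scales. On the left the median of the member genes is −0.40 and that of the cytosolic chaperones 0.04, with hsp-16.2, hsp-16.41 and hsp-70 far to the right.

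The responses of the cytosol and the endoplasmic reticulum are given for comparison. Of 17 cytosolic chaperone genes, 3 were at least 2-fold higher after heat shock (8.9% of all genes tested were) and none at least 2-fold lower (8.24% of all genes tested were), with hsp-16.2 at 9.55 after heat shock, 3.54 after bio-electrospray and 3.03 in control, and a list median of 0.04. The control levels of the 3 lie below the array median. They passed the filter through their heat shock levels alone, so they could only be counted as higher. In the list of 20 endoplasmic reticulum response genes, xbp-1 (1.81) and atf-6 (1.03) were 2-fold higher and ckb-2 (−1.71) 2-fold lower around a median of −0.02. These 3 of 20 are close to the 17.1% of all genes tested that were 2-fold apart. With 1 array per group these differences between lists were not tested, and nothing here is shown to be particular to the mitochondrial genes.

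After bio-electrospray no gene of the 9 wider lists was 2-fold apart, where 0.302% of all genes tested were. List medians ran from −0.09 for the further mitochondrial chaperones, prohibitins and proteases to 0.01 for the cytosolic chaperones. The import list had a median of −0.05, with 15 of 22 negative. For the respiratory chain list the median was 0, with 16 negative, 17 positive and 20 exactly equal. Among all genes tested 37.1% were negative and 28.7% exactly equal.

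The profile of hsp-6 over the 3 arrays was not rare. Among 7935 other genes above the median on all arrays, eif-1.A, gldi-9 and coa-3 lay nearest to it in the plane of the differences from control, at distances of 0.0088, 0.0090 and 0.010 log2 units, and 101 genes lay within 0.1. For the median profile of the 10 members the nearest were ugt-50, perm-3 and dhs-21, and 304 genes lay within 0.1. With 3 arrays such likeness describes these arrays only.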

How the data were processed

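The authors deposited 1 log2 level per probe set and array, made with GCRMA per the submitters' processing notes; its version and options, and the scanner files, were not used here. The log2 scale was inferred from the range of the values. Per the labels' protocols, 200 ng of total RNA per sample was amplified and labelled with biotin. No column belonged to no sample (0). Depth does not apply to arrays, and their number limits the precision. The platform annotation gave 20766 probe sets with 1 gene symbol, 887 with several and 972 with none; the symbols of all 15 member probe sets were the same in RefSeq. Differences of log2 levels were computed per probe set and per gene, with the brightest probe set on average standing for the gene. No test was made, because each group has 1 array. Counting at a 2-fold threshold covered the genes whose level exceeded the array median on either compared array. The counting was tested on simulated data. The 9 wider lists hold 199 names, 12 of them not found on the array; some of these are older names of genes also listed. From each list up to 3 genes with the largest positive and up to 3 with the largest negative heat shock difference were named; asb-2, phb-2, hsp-75, sphk-1, rheb-1, jmjd-1.2, egl-20 and the markers were named beside them after their values were seen. The members and lists were chosen with earlier results of these data known. Names ending in s or x mark 7 of the 15 member probe sets as possibly shared with other transcripts. Alternatives covered 8 settings planned, with fold thresholds of 1.5 and 3, and 2 added after seeing the data. Computations used Python 3.11.15, numpy 2.4.6 and pandas 2.3.3, with figures from matplotlib 3.10.9.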

Additional observations from a re-analysis of the deposited data

How the results depend on the processing

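No paired analysis was possible because each group has 1 array and the labels give no replicate numbers; leaving out a replicate was likewise not possible. Spike-in centring and loess centring were added after seeing the data. The count of members at least 2-fold apart was 0 in each comparison and became 1 (spg-7) between heat shock and control with median centring. At a 1.5-fold threshold it was 3 for heat shock against control, 1 for bio-electrospray against control and 2 for heat shock against bio-electrospray, by construction of the lower threshold. With spike-in centring the member median was 0.14 for heat shock minus control, 0.16 for bio-electrospray minus control and 0.020 for heat shock minus bio-electrospray, because all genes shift by the spike-in offset. In the other settings run, the heat shock minus control median stayed between −0.54 (without probe sets named as shared, 5 members) and −0.32 (mean over probe sets). Without spike-in centring, the 7 members lower after heat shock kept that direction in every setting in which they passed the filter. Settings that change only the filter leave a gene's difference as it is, so they could not turn it. Such values are among those counted below as not moved. With spike-in centring hsp-60 (0.38), ymel-1 (0.21) and dve-1 (0.14) turned to higher after heat shock. The direction of clpp-1 after bio-electrospray turned to −0.03 without probe sets named as shared. Haf-1 entered only without the level filter. Values near the floor limit what can be said of spg-7 and haf-1. Among the values of single members and of the wider lists under all alternatives, 115 moved and 747 did not; a difference was taken to have moved when it changed by more than the SD of the gap between probe sets of a gene (for a median, that SD over the square root of the number of genes), and a count when it changed by more than 1.5 times.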
